A study of Mus musculus with 96 samples.

Results

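One hour of light after prolonged darkness was followed in the nuclei of VIP interneurons of mouse visual cortex, in animals whose Igf1 enhancers had been left intact. VIP interneurons are inhibitory cortical cells that make vasoactive intestinal peptide. The comparison set 4 light libraries against 4 dark libraries, 8 of the 96 libraries of the series. Their labels give them as control nuclei of line E23 sorted as VIP nuclei. All 8 came from mice homozygous for Igf1-E23 fl (fl/fl) that also carried 1 VIP flp allele (flp/wt). In this line an Igf1 enhancer segment that the label names E23 is flanked by sites that Cre recombinase cuts, and VIP cells express the recombinase Flp. An adeno-associated virus, AAV-Syn1-fDIO-mScarlet-KASH-2a-dCre, was injected into the visual cortex at 55 to 60 days of age. It carries a nuclear-envelope mScarlet tag and dCre, a Cre that does not cut, under the neuronal Syn1 promoter, and it is switched on by Flp. Dark housing began 3 days later and lasted 10 to 12 days. The light group saw 1 h of light before tissue was taken, and the dark group saw none. Each group held 2 female and 2 male samples. Comparison groups of 4 dark and 4 light libraries each were VIP nuclei of the same line with active Cre (AAV with Cre in place of dCre, which cuts the enhancer segment out) and total nuclei, an unselected sort, of the dCre mice. Also used were dCre VIP nuclei of lines homozygous for Igf1-E1 fl (5 light and 3 dark libraries) or Igf1-E123 fl (4 of each), with the same VIP flp allele, virus and housing. The labels give replicate numbers and do not say that samples came from separate animals, so p-values measure the spread between libraries.

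Light seen by the animal after darkness raises neuronal firing and calcium entry in the visual cortex. Within minutes, calcium-activated kinases phosphorylate factors already present in the nucleus, such as CREB and SRF, and these start transcription of immediate-early genes. Many immediate-early genes encode transcription factors of the Fos, Egr, Nr4a and Npas4 families, which then act on later effector genes such as Bdnf and Igf1. In VIP interneurons, Igf1 is a known activity-regulated gene whose secreted product acts on the inhibition that these cells receive.

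Light changed 10 of 20585 genes tested (0.0486%) at an adjusted p under 0.05 in the quasi-likelihood test of edgeR. Higher after light were 7 genes (0.034% of those tested). They were Nr4a1 and Fosl2 (activity-induced transcription factors), Dnajb1 and Hsph1 (heat-shock chaperones), Tent5a (a noncanonical poly(A) polymerase), and 2 noncoding transcripts that hold microRNA genes, 1700016P03Rik and Mir670hg. Lower were 3 genes (0.0146%), Adamts3 (a procollagen protease), the noncoding transcript 9530036O11Rik, and 4930402H24Rik. Each of the 10 had all 4 light libraries on one side of all 4 dark libraries. The median log2 fold change over all genes tested was −0.02, and 9705 of the 20585 had fitted changes above 0.

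The 2 microRNA hosts are shown with the mature microRNAs inside them because the count table measures the host transcript, not the short products. 1700016P03Rik (ENSMUSG00000085609; chromosome 11, 75172560 to 75177633, plus strand, mm10) contains the hairpins of miR-212 and miR-132, the second a well-known CREB-induced microRNA of neurons. Sequences are from RefSeq (GRCm38.p6), 5′ to 3′, with the seed, bases 2 to 8, in capitals.
mmu-miR-212-5p: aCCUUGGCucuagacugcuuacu
mmu-miR-212-3p: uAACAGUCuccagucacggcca
mmu-miR-132-5p: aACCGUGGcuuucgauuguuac
mmu-miR-132-3p: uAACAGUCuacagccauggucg
The 3p products of both share the seed AACAGUC, while the 5p products have different seeds. Mir670hg (ENSMUSG00000075020; chromosome 2, 94160636 to 94264918, minus strand) spans the hairpins of miR-670 and miR-129-2, of which 1 mature product each is given.
mmu-miR-670-5p: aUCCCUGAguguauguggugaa
mmu-miR-129-5p: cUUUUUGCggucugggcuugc
Neither seed matches the other, nor any of the 4 above.

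Upstream sequence is given for 5 of the genes that rose together, as the 250 bases before the RefSeq start (GRCm38.p6, first listed start), since these windows are where activity-dependent factors are known to act. Of the 10 genes, 9 had a RefSeq window, and 1700016P03Rik did not. Capitals mark matches on either strand to 7 motifs, of which 6 are spelled out here and the CArG box is given by its name. These were the CRE (TGACGTCA), the shorter CRE core (TGACG), the AP-1 site (TGANTCA), the NBRE of Nr4a receptors (AAAGGTCA), a heat-shock element pair (GAANNTTC), the Egr site (GCGNGGGCG) and the CArG box of SRF. A CRE also counts as a core.
Nr4a1, chr15:101266596-101266845, plus strand: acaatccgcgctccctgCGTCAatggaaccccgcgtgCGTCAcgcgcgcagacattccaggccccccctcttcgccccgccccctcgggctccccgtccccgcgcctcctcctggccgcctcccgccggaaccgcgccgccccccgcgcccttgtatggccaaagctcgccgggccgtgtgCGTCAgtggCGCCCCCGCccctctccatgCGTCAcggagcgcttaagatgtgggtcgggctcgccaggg
Fosl2, chr5:32136222-32136471, plus strand: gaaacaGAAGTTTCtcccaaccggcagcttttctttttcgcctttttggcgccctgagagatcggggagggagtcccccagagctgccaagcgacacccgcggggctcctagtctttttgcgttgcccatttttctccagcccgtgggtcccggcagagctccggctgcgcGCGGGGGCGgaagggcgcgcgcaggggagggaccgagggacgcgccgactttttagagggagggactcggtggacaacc
Tent5a, chr9:85327151-85327400, minus strand: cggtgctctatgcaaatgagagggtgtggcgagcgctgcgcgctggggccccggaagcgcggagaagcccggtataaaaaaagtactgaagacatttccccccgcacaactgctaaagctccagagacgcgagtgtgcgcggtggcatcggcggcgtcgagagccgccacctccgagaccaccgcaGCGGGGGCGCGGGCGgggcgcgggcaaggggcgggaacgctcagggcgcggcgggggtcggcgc
Dnajb1, chr8:83607925-83608174, plus strand: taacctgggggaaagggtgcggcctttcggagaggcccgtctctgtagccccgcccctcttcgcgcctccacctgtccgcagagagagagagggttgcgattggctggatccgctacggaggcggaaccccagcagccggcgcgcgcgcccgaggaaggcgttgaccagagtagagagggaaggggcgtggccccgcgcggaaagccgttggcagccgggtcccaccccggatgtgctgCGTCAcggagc
Mir670hg, chr2:94265104-94265353, minus strand: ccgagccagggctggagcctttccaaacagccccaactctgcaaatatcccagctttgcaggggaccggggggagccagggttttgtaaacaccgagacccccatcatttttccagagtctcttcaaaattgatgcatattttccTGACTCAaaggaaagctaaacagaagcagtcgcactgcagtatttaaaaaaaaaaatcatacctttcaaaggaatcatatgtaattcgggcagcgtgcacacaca
Nr4a1 held 4 CRE cores and an Egr site, and Fosl2 and Tent5a held Egr sites without a CRE core. Of the 6 higher genes with a window, counted over the 300 bases that include 50 after the start, 2 held a CRE core and 3 an Egr site. Of the 12804 genes tested that had any window, 32.7% held a CRE core and 11.3% an Egr site. Hsph1 had a heat-shock element pair after its start, and Dnajb1 had none in these windows. Among immediate-early transcription factors, 16 of the 21 with a window held a CRE core, Fos, Fosb, Junb, Npas4 and the 3 Nr4a genes among them. These matches are letters in a window and not measured binding.

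Total counts of the 8 libraries ranged from 2914168 to 9122515, with 17177 to 19686 genes detected. All 16 markers of VIP interneurons had counts in the dark libraries, and 15 of them in the light libraries. Their summed level was 20323 to 31839 CPM (read counts scaled to a common library size) in the dark and 22911 to 34934 after light. Light replicate 1 stood apart. Its summed excitatory neuron markers reached 2530 CPM against 477 to 893 in the other 7 libraries, its oligodendrocyte lineage markers 2215 against 131 to 465, and its astrocyte markers 1460 against 348 to 548. Mitochondrially encoded RNA was also highest there, at 10343 CPM against 999.96 to 4971 elsewhere. The balance of long (over 100 kb) and short (under 10 kb) protein-coding genes, given as the difference of their mean log2(CPM + 1), was 2.66 ± 0.421 in the dark and 2.21 ± 0.145 after light (SD, n = 4 each). That difference had p = 0.0857 in an exact two-sided permutation test, which with 4 against 4 cannot go below 0.0286. Results are therefore also given without light replicate 1 where it changed them, and the length index is given beside some lists. Without that library 3 of the 10 genes passed, Nr4a1, Dnajb1 and 1700016P03Rik, and no lower gene did. More RNA of a gene per nucleus and a larger share of nuclei that express it cannot be told apart in pooled nuclei.

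**Figure D1:**
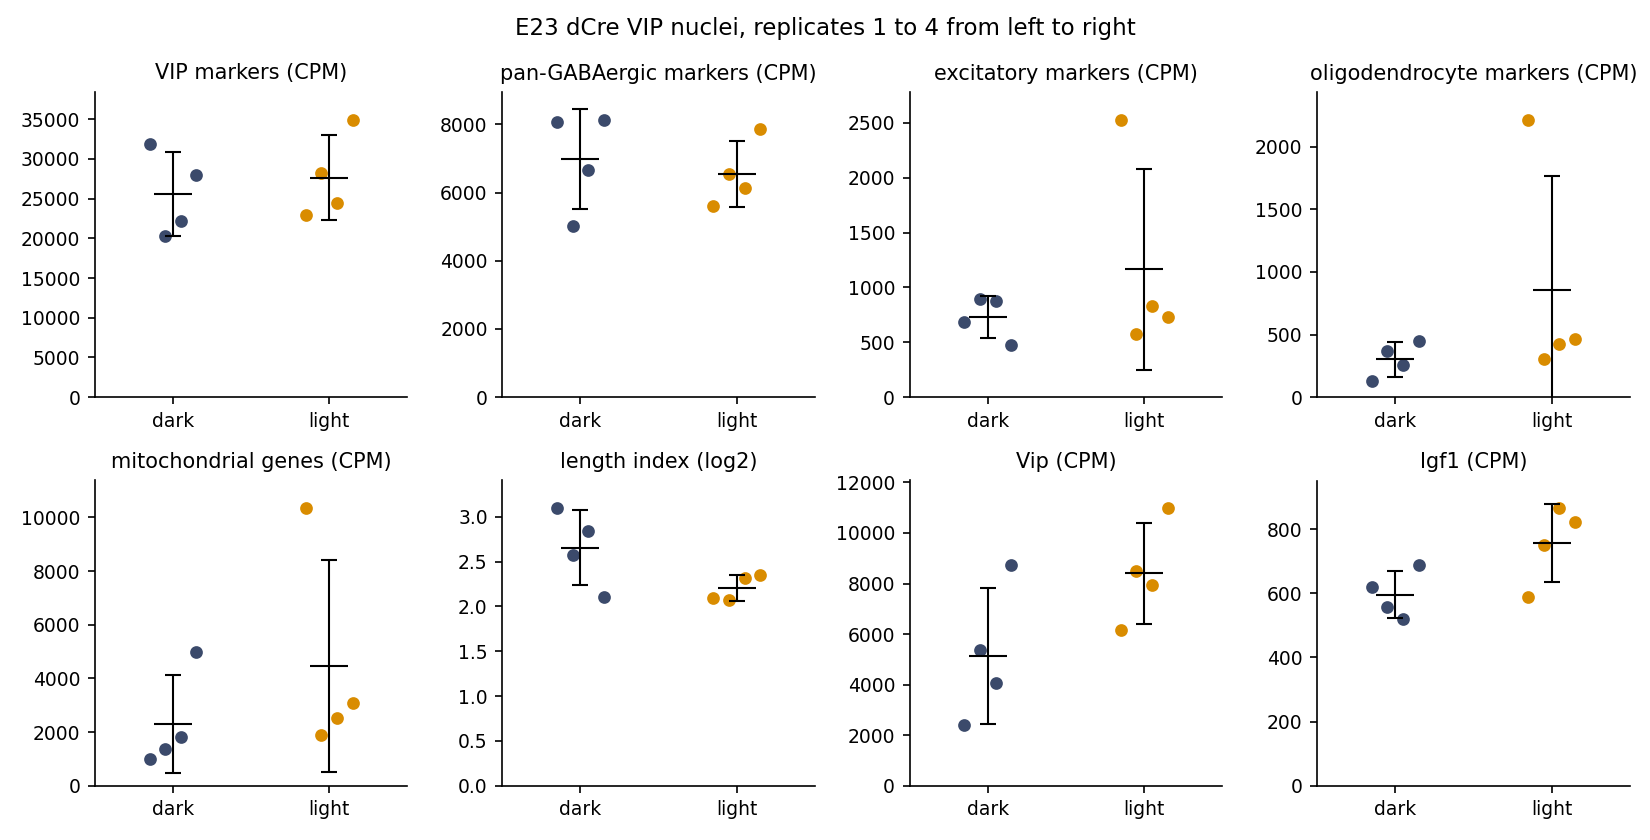
Each panel plots 1 quantity per library (y axis, CPM on TMM library sizes or, for the length index, log2 units) for the 4 dark and 4 light libraries, with bars at the mean ± SD (lower ends below 0 are not drawn). Light replicate 1 holds 2530 CPM of excitatory and 2215 CPM of oligodendrocyte markers, above the other 7 libraries, and Igf1 and Vip overlap between the groups.

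Nr4a1, an orphan nuclear receptor and a classical immediate-early gene (ENSMUSG00000023034; chromosome 15, 101254269 to 101274795, plus strand), had the smallest p. It stood at 29.5, 25.9, 10.7 and 46.4 CPM in dark replicates 1 to 4 and at 301, 182, 259 and 175 CPM in light replicates 1 to 4. Every light library lay more than 3 times above the highest dark one. The log2 fold change was 3.02 ± 0.402 (SE), or 8.13-fold, with an adjusted p of 1.43e-05. It was the 1 gene of the 10 that passed under each of the 18 other settings tried, and the 1 gene left when dark replicate 2, dark replicate 3 or light replicate 3 was left out. Among the 18 is a looser threshold of 0.1 on the same fit, which all 10 genes pass by construction.

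Fosl2, an AP-1 subunit (ENSMUSG00000029135; chromosome 5, 32135801 to 32157842, plus strand), stood at 20.5, 0.828, 2.67 and 14.9 CPM in the dark. After light it stood at 127, 81.4, 73.4 and 54.9 CPM, and the groups did not overlap although the dark libraries differed widely. Its log2 fold change was 3.11 ± 0.590 (adjusted p = 0.0178 in edgeR). Tent5a (ENSMUSG00000032265) rose from 12.3, 7.04, 1.34 and 3.11 to 48.3, 53.0, 58.4 and 26.6 CPM (log2 fold change 2.94 ± 0.586, adjusted p = 0.0261 in edgeR).

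The host of miR-212 and miR-132, 1700016P03Rik, stood at 27.9, 7.24, 6.35 and 25.2 CPM in the dark and at 82.8, 101, 154 and 80.5 CPM after light. This was a rise of 2.65 ± 0.488 on the log2 scale (adjusted p = 0.0152 in edgeR), with light replicate 3 the highest. The gene overlaps Ovca2 on the opposite strand, and the library chemistry does not mark strand. Ovca2 itself went from a mean of 13.9 to 29.5 CPM (adjusted p = 0.56), so the 2 genes' reads cannot be fully told apart. Mir670hg was the most abundant of the rising genes, at 192, 59.6, 75.2 and 149 CPM in the dark and 391, 393, 445 and 430.2 CPM after light. Its light libraries lay within a narrow band, and the log2 fold change was 1.80 ± 0.373 (adjusted p = 0.031 in edgeR).

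Dnajb1, an Hsp40 cochaperone (ENSMUSG00000005483; chromosome 8, 83608193 to 83612653, plus strand), stood at 4.65, 8.90, 3.68 and 3.11 CPM in the dark and 26.3, 71.8, 77.7 and 35.9 CPM after light. Its rise of 3.36 ± 0.691 (adjusted p = 0.031 in edgeR) was the highest fitted change among the 7. Hsph1, an Hsp110 chaperone that acts as a nucleotide exchange factor for Hsp70, went from 32.3, 33.1, 32.4 and 16.8 to 110.3, 90.0, 285 and 56.4 CPM. Light replicate 3 set much of its spread, and the log2 fold change was 2.24 ± 0.467 (adjusted p = 0.031). Without that replicate the fitted change of Hsph1 was 1.57 and did not pass.

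Among the genes that fell, Adamts3 (ENSMUSG00000043635; chromosome 5, 89677087 to 89883334, minus strand) stood at 57.0, 56.3, 48.8 and 22.1 CPM in the dark and 3.45, 4.06, 10.5 and 19.1 CPM after light. The lowest dark and the highest light library nearly met, and the log2 fold change was −2.31 ± 0.445 (adjusted p = 0.0178 in edgeR). 9530036O11Rik, a noncoding transcript opposite Shh, fell from 18.6, 9.73, 6.02 and 10.6 CPM to 0, 0.579, 0.307 and 0 CPM (log2 fold change −5.30 ± 1.09, adjusted p = 0.031). Its light libraries thus held only a few reads. Shh itself went from a mean of 1.03 to 0.235 CPM (adjusted p = 0.81 in edgeR). Without strand marks the reads of these 2 genes cannot be fully told apart. 4930402H24Rik went from 423, 382, 295 and 285 to 145, 185, 213 and 165 CPM, a log2 fold change of −0.97 ± 0.207 (adjusted p = 0.0431 in edgeR). It shares its strand and place with A730017L22Rik, which went from a mean of 77.2 to 39.2 CPM. The change of A730017L22Rik was −0.97 (unadjusted p = 0.0039, adjusted p = 0.427 in edgeR), and the reads of these 2 genes cannot be fully told apart. Of 18 other settings, Adamts3 passed in 11, 9530036O11Rik in 8 and 4930402H24Rik in 7, each count including the looser threshold that they pass by construction. None of the 3 passed without light replicate 1.

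**Figure D2:**
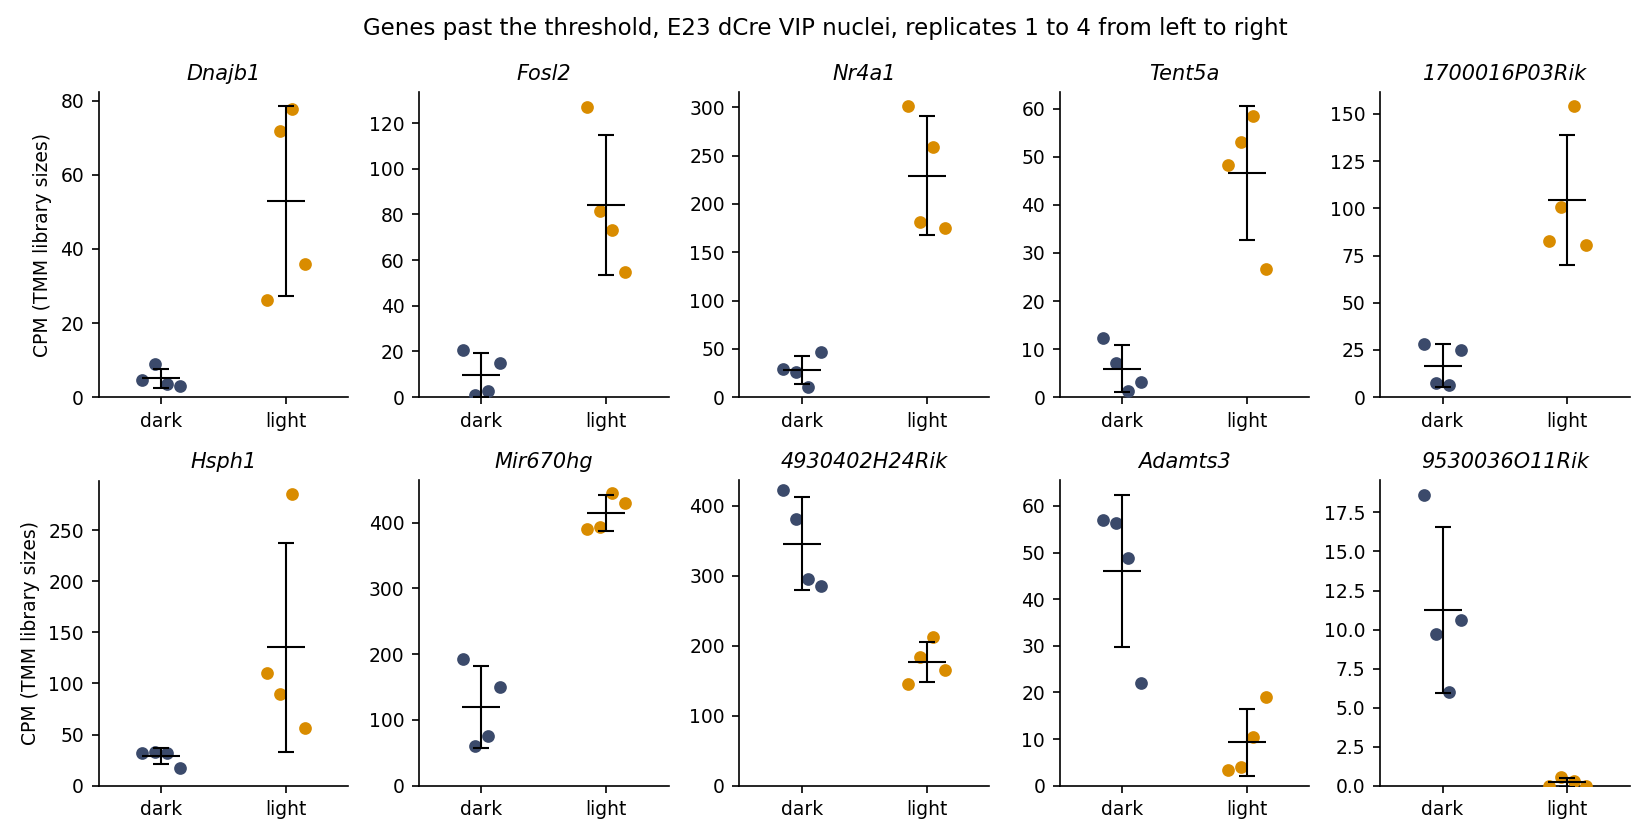
Each panel plots 1 of the 10 genes past the threshold in CPM (y axis, linear, from 0) for the 4 dark and 4 light libraries, with bars at the mean ± SD. Light and dark libraries do not overlap in any panel. In Adamts3 the gap is the narrowest, between 19.1 and 22.1 CPM.

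Next in order of p came 10 genes that did not pass. Sik2, a salt-inducible kinase that restrains CREB coactivators, held 113, 35.0, 80.2 and 44.8 CPM in the dark and 202, 169.6, 296 and 191 CPM after light (log2 fold change 1.65 ± 0.365, adjusted p = 0.0605 in edgeR). Pdgfa, a growth factor ligand, held 15.1, 15.1, 9.02 and 23.4 CPM in the dark and 49.8, 60.1, 45.1 and 43.9 CPM after light (1.67 ± 0.404, adjusted p = 0.142). Both had light libraries all above the dark ones. The other 8, Fmn1, CT030661.1, T2, Wdr25, D130040H23Rik, Ano6, Fam13a and Sugp1, had fitted changes from −4.72 to −1.16. Fmn1, a formin that assembles actin, held 114, 98.5, 122 and 71.9 CPM in the dark and 30.1, 13.8, 37.0 and 32.9 CPM after light (adjusted p = 0.0605).

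Immediate-early transcription factors were mostly higher after light, although few passed the test. Of the 27 listed, 26 were tested, 2 passed (Nr4a1 and Fosl2), and 13 were higher with an unadjusted p under 0.05, a mark that 3.64% of all genes reached. In 11 of the 26 all light libraries lay above all dark ones, which held for 464 of all genes tested (2.25%). Without light replicate 1 that count was 12 of 26, against 3.84% of all genes, and the number higher at an unadjusted p under 0.05 was 12. The list's median log2 fold change was 2.04, and 1.68 without light replicate 1. With DESeq2 7 members passed, and without a filter on low counts 9 did. Fosl2 did not pass without light replicate 1, nor without dark replicate 2, dark replicate 3 or light replicate 3.

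Fos, the founding AP-1 gene, stood at 18.1, 3.52, 0 and 36.7 CPM in the dark and 92.2, 129.6, 156 and 93.1 CPM after light. The groups did not overlap, but the dark libraries ran from 0 to 36.7 CPM and the log2 fold change of 3.02 ± 0.970 did not pass (adjusted p = 0.427 in edgeR). Fosb had no count in any dark library and 12.9, 9.27, 12.9 and 4.01 CPM after light. Against a floor of 3 counts over the 4 dark libraries, its light level was at least 49.9-fold higher, and the test gave an adjusted p of 0.145. Atf3, a stress- and activity-induced factor, was likewise at 0 in the dark and at 12.2, 16.8, 6.85 and 3.01 CPM after light, at least 49.7-fold higher (adjusted p = 0.419).

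Egr1, a zinc-finger factor, held 43.0, 14.9, 16.4 and 47.95 CPM in the dark and 221, 146, 177 and 111 CPM after light (log2 fold change 2.42 ± 0.620, adjusted p = 0.192 in edgeR). Junb held 15.4, 4.14, 4.35 and 10.6 CPM in the dark and 64.0, 56.2, 36.1 and 26.6 CPM after light (2.40 ± 0.621, adjusted p = 0.189). Both sets of light libraries were clear of the dark ones. Npas4, a factor induced by calcium entry in neurons, held 4.65, 7.45, 3.34 and 0 CPM in the dark and 14.1, 32.3, 32.3 and 10.5 CPM after light (2.51 ± 0.923, adjusted p = 0.458). Egr4, Nr4a2 and Nr4a3 had fitted changes of 4.76, 3.35 and 3.26, also without overlap between the groups. Egr2 was at 0 in the dark and at 23.2, 0, 6.44 and 0.251 CPM after light, so that light replicate 1 held most of its signal. Fosl1 was the 1 member lower at an unadjusted p under 0.05, at 0.623 to 3.01 CPM in the dark and 0 to 0.502 CPM after light. Jun, Jund, Klf6 and Srf had changes between −0.53 and 0.40.

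Of 21 other rapid activity-induced genes tested, 20 had fitted changes above 0. None passed, 8 were higher at an unadjusted p under 0.05 (3.64% of all genes) and 6 had all light libraries above the dark ones (2.25%). The median log2 fold change was 1.51, and 4 rather than 8 had that unadjusted p without light replicate 1. Arc, a synaptic capsid-like protein, held 12.6, 7.66, 2.67 and 10.9 CPM in the dark and 219, 37.4, 64.0 and 19.6 CPM after light (3.31 ± 1.04, adjusted p = 0.422 in edgeR). Without light replicate 1 the fitted change of Arc was 2.25. Light replicate 1, the library with the highest excitatory markers, was also the highest for Arc; the part of those markers in the Arc level was not tested. Gadd45b, a DNA-demethylation and stress factor, held 3.96, 2.69, 0.668 and 4.36 CPM in the dark and 33.2, 12.6, 36.3 and 9.78 CPM after light (2.96 ± 0.921). Errfi1, a feedback inhibitor of the EGF receptor, had a fitted change of 2.35 ± 0.748.

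Heat-shock chaperones, which refold damaged proteins, had fitted changes above 0 in 16 of 16 members tested. Dnajb1 and Hsph1 passed (0.034% of all genes rose), 7 were higher at an unadjusted p under 0.05 (3.64%), and 5 had light libraries all above the dark ones (2.25%). Neither passed when any 1 of the 4 dark libraries or light replicate 3 was left out, or with only the 8 libraries, and Dnajb1 alone passed without light replicate 1. The median was 0.95, and without light replicate 1 it was 1.13 with 9 members at that unadjusted p. Dnaja1, a second Hsp40, held 37.0, 34.4, 38.8 and 53.6 CPM in the dark and 107, 91.3, 94.8 and 107 CPM after light (1.29 ± 0.372, adjusted p = 0.331 in edgeR). Bag3, an Hsp70 cochaperone, rested on 2 light libraries, at 6.27, 0.579, 10.8 and 0 CPM against at most 0.334 CPM in the dark. With the length index as a covariate, the chaperone median was 0.53 and 4 members had an unadjusted p under 0.05.

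**Figure D3:**
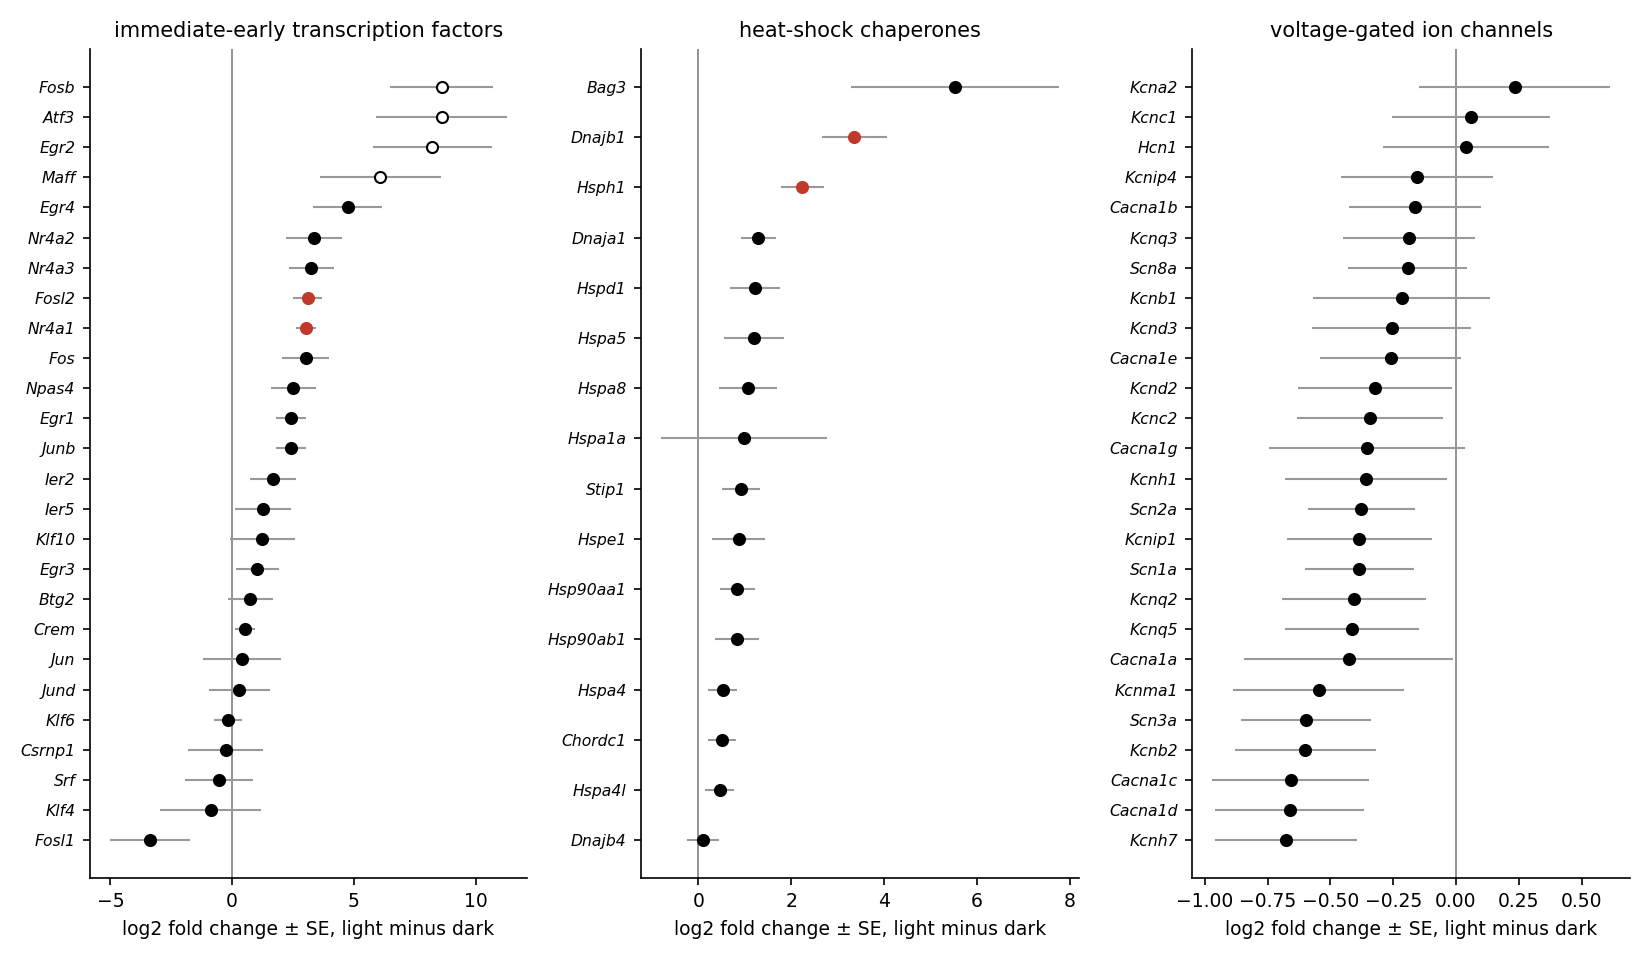
Log2 fold changes of light minus dark (x axis, ± SE, scale differing between panels) for each tested member of 3 lists. Red points passed the threshold, black points did not, and open points mark genes at 0 in 1 group, whose fitted value is not a bound. Chaperones sit to the right of 0 in 16 of 16 members, and ion channels to the left in 23 of 26.

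Activity-regulated effector genes, the later layer of the response, gave no call among 19 tested, with 4 higher at an unadjusted p under 0.05 (3.64% of all genes). Pcsk1, a prohormone convertase, held 98.9, 92.3, 80.2 and 152 CPM in the dark and 206, 179, 283 and 228 CPM after light (1.08 ± 0.329, adjusted p = 0.377 in edgeR). Homer1, a postsynaptic scaffold with an activity-induced short form, held 83.1, 77.2, 114 and 78.8 CPM and then 324, 121, 196 and 185 CPM (1.22 ± 0.374, adjusted p = 0.379). Vgf, a neuropeptide precursor, had a fitted change of 1.17 ± 0.432, and Nptx2 of 1.82 ± 0.898. Bdnf, a neurotrophin, was low in these nuclei, at 2.79, 0, 3.01 and 2.80 CPM in the dark and 14.4, 7.10, 25.2 and 2.01 CPM after light, and its groups overlapped (2.51 ± 1.47, adjusted p = 0.612).

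Igf1, the gene whose enhancers the line carries flanked by recombination sites (ENSMUSG00000020053; chromosome 10, 87858265 to 87937042, plus strand), held 619, 557, 520.1 and 688 CPM in the dark. After light it held 589, 750.0, 866 and 823 CPM. Light replicate 1 lay within the dark range and the other 3 above it. The difference in mean log2(CPM + 1) was 0.34, with p = 0.0857 in an exact two-sided permutation test, and the edgeR log2 fold change was 0.34 ± 0.231 (adjusted p = 0.671). Without light replicate 1 the difference was 0.45 (exact permutation p = 0.0571). Vip held 2389, 5351, 4050 and 8714 CPM in the dark and 6155, 8509, 7944 and 10979 CPM after light, with overlapping groups (0.71 ± 0.441, adjusted p = 0.64). None of the 30 tested IGF1 signalling genes passed. At an unadjusted p under 0.05, 1 was higher (3.64% of all genes were) and 2 were lower (6.2%). Foxo3, a transcription factor that insulin-like signalling holds in check, had a change of −0.89 ± 0.432 (unadjusted p = 0.0456 in edgeR). With the length index as a covariate no member of this list was lower at an unadjusted p under 0.05.

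Among growth factor ligands, none of 24 passed. Beside Pdgfa, Hbegf, an EGF family ligand, had a fitted change of 1.37 ± 0.619. Fgf2 and Ntf3 were at 0 after light and at up to 2.56 and 2.90 CPM in the dark, levels too low to compare. Of 14 MAPK phosphatases and feedback regulators tested, which switch off ERK signalling, none passed and 3 were higher at an unadjusted p under 0.05 (3.64% of all genes), Dusp4, Dusp6 and Spry2 (4.98 ± 1.72, 1.29 ± 0.593 and 1.32 ± 0.598). Over 17 other settings the fitted change of Dusp4 ran from 4.0 to 6.79. Without light replicate 1, 2 members were higher and 1 was lower at that unadjusted p. Spry4 had light libraries all above the dark ones (1.59 ± 0.998).

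In the CREB pathway, none of 22 passed, 5 were higher (3.64% of all genes) and 2 lower (6.2%) at an unadjusted p under 0.05, and the median was −0.07. With the length index as a covariate 3 members passed, Sik2, Sik3 and Pde10a. Over all 20585 genes tested 24 passed with that covariate, against 10 in the main fit. The higher ones included the salt-inducible kinases. Sik3 held 320.4, 158, 278 and 161 CPM in the dark and 391, 338, 417 and 391.8 CPM after light (0.74 ± 0.289, adjusted p = 0.466 in edgeR), and Sik1 had a change of 1.66 ± 0.724. Pde10a, a phosphodiesterase that degrades cyclic nucleotides, had a change of 1.22 ± 0.469. Crtc1 and Crtc3, CREB coactivators held in check by these kinases, had changes of −0.74 and −0.71.

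Neuropeptides of interneurons leaned upwards without a call. Of 17 tested, 15 had fitted changes above 0. At an unadjusted p under 0.05, 5 were higher (3.64% of all genes were), and in 3 all light libraries lay above the dark ones (2.25% of all genes). Somatostatin interneuron markers moved alongside, with 3 of 8 higher at that p, a median of 0.81 and a summed level of 334 to 483 CPM in the dark and 423 to 786 CPM after light. Their part in the neuropeptide values was not tested, and the genes Sst and Npy belong to both lists. Crh, corticotropin-releasing hormone, held 77.7, 198, 135 and 342 CPM in the dark and 405, 508, 466 and 446 CPM after light (1.28 ± 0.404, adjusted p = 0.419 in edgeR). Cck, cholecystokinin, held 370, 566, 221 and 574 CPM and then 651, 1204, 937 and 1151 CPM (1.19 ± 0.523, adjusted p = 0.474). Npy and Pnoc had changes of 0.90 ± 0.436 and 0.81 ± 0.371 with overlapping groups. With the length index as a covariate 1 neuropeptide was higher at that unadjusted p.

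General GABAergic genes were covered by 2 lists, and the difference between them was not tested. Pan-GABAergic markers had a median of 0.60, with 9 of 12 above 0, although their summed level was 6976 ± 1469 CPM in the dark and 6536 ± 965 CPM after light (SD, n = 4 each). GABA synthesis, transport and receptor genes had a median of −0.01, with 10 of 20 above 0. Dlx1, a homeobox factor of inhibitory neurons, held 61.9, 69.96, 42.5 and 89.7 CPM in the dark and 124, 167, 125 and 143 CPM after light (1.08 ± 0.298, adjusted p = 0.28 in edgeR). Dlx6, Dlx6os1, Gad2 and Gad1, the last 2 encoding the enzymes that make GABA, had changes of 1.15 ± 0.421, 0.77 ± 0.284, 0.64 ± 0.231 and 0.66 ± 0.271. None of 12 pan-GABAergic markers passed. At an unadjusted p under 0.05, 5 were higher (3.64% of all genes), and in 5 all light libraries lay above the dark ones (2.25%).

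Most ion channels and most glutamate receptor and postsynaptic genes had fitted changes below 0. Of 26 voltage-gated ion channels 23 had changes below 0 and 3 above, where 9705 of all 20585 genes were above 0. At an unadjusted p under 0.05, 5 channels were lower (6.2% of all genes were), and none passed. In 1 channel all light libraries lay below the dark ones (2.02% of all genes), and the list's median was −0.36. Scn3a, a sodium channel subunit, held 171, 122.95, 134 and 202 CPM in the dark and 87.5, 112, 98.4 and 118 CPM after light (−0.60 ± 0.258, adjusted p = 0.466 in edgeR). Kcnh7, Cacna1d and Kcnb2 had changes of −0.68, −0.66 and −0.60 with overlapping groups. With the length index as a covariate the channel median was −0.04 and 1 member was lower at that unadjusted p. The part of gene length in these values was not tested. Without light replicate 1, or without dark replicate 1, no channel was lower at that unadjusted p. Leaving out any other 1 of the libraries left 2 to 6 such channels. Of 24 glutamate receptor and postsynaptic genes, 5 had changes above 0 and 2 were lower at that unadjusted p (6.2% of all genes). In 4 of them all light libraries lay below the dark ones (2.02%), Gria4 and Grm7 among them. Grm7, a metabotropic glutamate receptor, held 1971, 1745, 1994.5 and 1316.5 CPM in the dark and 1038, 1201, 1224 and 1096 CPM after light (−0.62 ± 0.272, adjusted p = 0.466 in edgeR). The list's median was −0.24, and 0.05 with the length index as a covariate.

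Clock genes gave no call among 19. Arntl, the core clock activator, had light libraries all below the dark ones (13.7 to 27.3 CPM against 27.3 to 56.2 CPM, −1.03 ± 0.449), and Bhlhe40 and Per2, repressors in the clock loop, had changes of 2.00 ± 0.923 and 1.07 ± 0.539. Of 10 nuclear-retained long noncoding RNAs none passed; Snhg14 had a change of −0.55 ± 0.239, and Malat1 of 0.38 ± 0.215. The 7 tested mitochondrially encoded genes had changes above 0 and none passed. Their median was 0.99 with light replicate 1 and 0.14 without it.

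**Figure D4:**
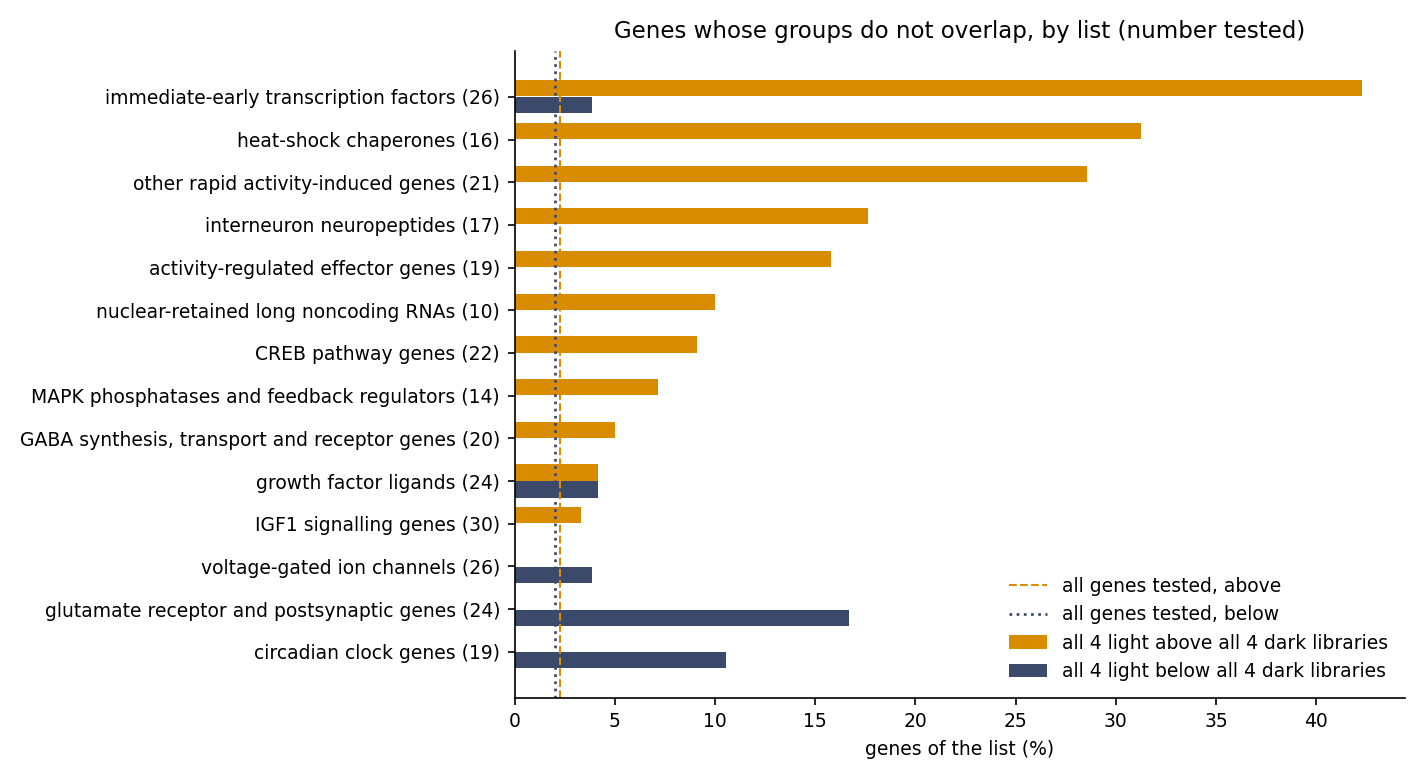
Share of each list's tested members (x axis, %) whose 4 light libraries all lay above (orange) or below (blue) all 4 dark libraries, with dashed and dotted lines at the 2.25% and 2.02% of all genes tested. Above the dark libraries lie 11 of 26 immediate-early transcription factors and 5 of 16 heat-shock chaperones, and below them 4 of 24 glutamate receptor and postsynaptic genes.

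Whether the response held in other nuclei of the same line was read from VIP nuclei with active Cre, which share no library with the dCre comparison. There 3 genes passed (0.0146%), Nr4a1, Fosl2 and Mir670hg, with log2 fold changes of 3.02 ± 0.401, 2.92 ± 0.581 and 2.15 ± 0.377. These lay close to the dCre values of 3.02, 3.11 and 1.80. 1700016P03Rik had a change of 2.31 ± 0.480 with an adjusted p of 0.053 in edgeR. The chaperones differed more in size, at 1.14 ± 0.636 for Dnajb1 and 0.88 ± 0.450 for Hsph1, and Adamts3 stood at 47.4 CPM in the dark and 41.5 CPM after light (−0.19 ± 0.420). Cre light replicate 3 held 1682 CPM of excitatory and 2139 CPM of oligodendrocyte markers, and light replicate 4 held 1111 and 1292 CPM. Cre dark replicate 2 held 1508 and 1237 CPM, and the remaining Cre VIP libraries at most 677 and 477.5 CPM. The part of these markers in the Cre values was not tested. The test of the difference between dCre and Cre light responses called no gene (0% of 20585), with 1196 at an unadjusted p under 0.05. For Adamts3 the difference was −2.12 ± 0.605 (unadjusted p = 0.000931, adjusted p = 0.61 in edgeR). For Dnajb1 it was 2.22 ± 0.906 (adjusted p = 0.726 in edgeR), and for Nr4a1 0.00 ± 0.541. These genes were picked by their dCre values, which this difference and those below reuse, so unadjusted p-values of such differences run low.

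In total nuclei of the dCre mice, 38 of 21213 genes passed (0.179%). Nr4a1, Fosl2 and 1700016P03Rik were among them, with 2.54 ± 0.323, 3.07 ± 0.594 and 2.5 ± 0.500. Sik2 and Pcsk1, short of the threshold in VIP nuclei, passed there at 1.73 ± 0.313 and 2.39 ± 0.361, as did Bdnf at 2.38 ± 0.448, Fos at 3.53 ± 0.746 and Homer1 at 1.69 ± 0.338. Adamts3 had a change of −0.02 ± 0.376 in total nuclei. The difference between VIP and total responses, in a fit of all 96 libraries, called no gene (0% of 22926, with 1778 at an unadjusted p under 0.05). VIP and total libraries of a number had the same labelled sex in 48 of 48 pairs and may come from 1 animal, which that fit does not use. With the number as a block, 1 gene passed, AC102496.1 (adjusted p = 0.0219 in edgeR), named after its value was seen. Adamts3 had the difference −2.29 ± 0.588 (unadjusted p = 0.000187, adjusted p = 0.413 in edgeR, and 0.374 with the block), Pcsk1 −1.31 ± 0.486 (adjusted p = 0.46) and Bdnf 0.17 ± 1.29.

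**Figure D5:**
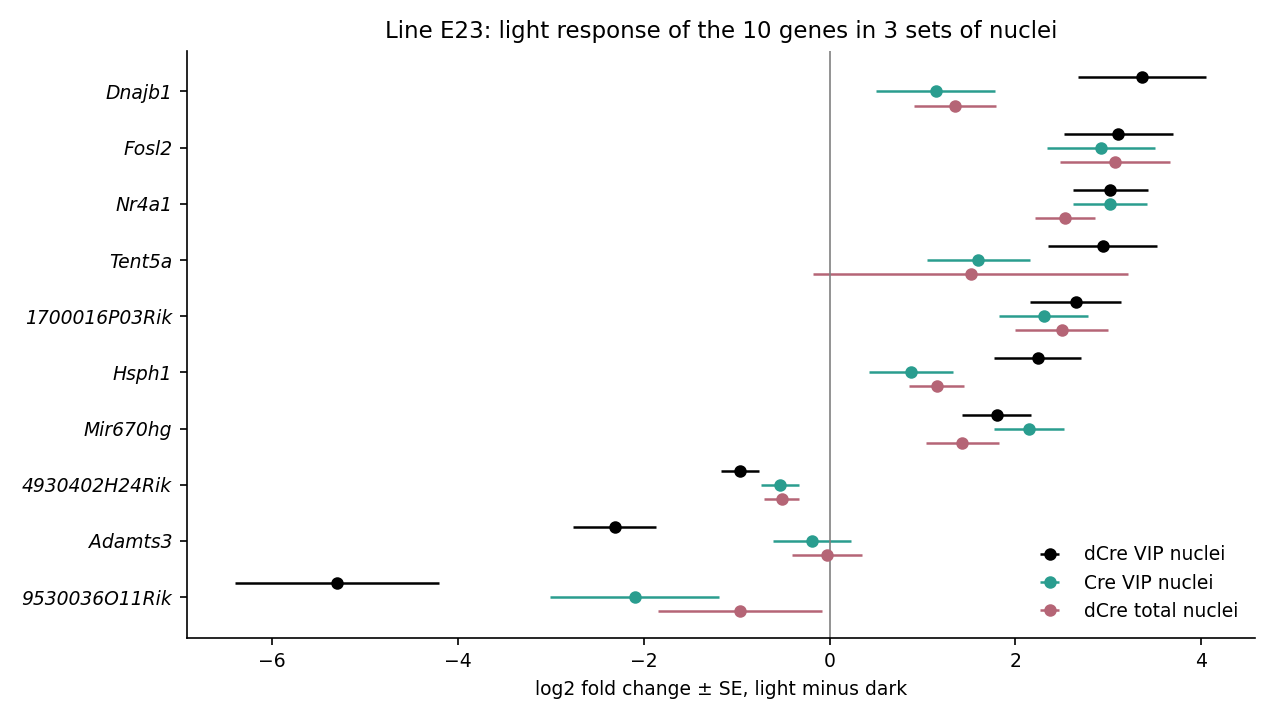
Log2 fold change of light minus dark (x axis, ± SE) of the 10 genes in dCre VIP (black), Cre VIP (green) and dCre total nuclei (pink) of line E23. Fosl2, Nr4a1 and 1700016P03Rik lie between 2.31 and 3.11 in all 3 sets, while Adamts3 lies at −2.31 in dCre VIP nuclei and near 0 in the other two.

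The dCre VIP nuclei of the other 2 lines carry different floxed Igf1 enhancers (E1, 5 light and 3 dark libraries; E123, 4 of each). Nr4a1 had changes of 1.45 in E1 and 2.09 in E123, Fosl2 of 2.11 and 3.37, and Mir670hg of 0.67 and 1.82. Adamts3 had changes of 0.09 and −0.33, and 9530036O11Rik of 0.84 and −0.47. In E1, 860 genes passed (4.18%), and in E123 2 did (0.00972%). The length index of the E1 libraries was 4.40, 4.37 and 2.93 in the dark and 2.31 to 3.26 after light. Its part in the 860 genes was not tested. No gene passed in the test of the difference from E1 (0%, with 2336 at an unadjusted p under 0.05 and a smallest adjusted p of 0.0545, for Kpna1), nor in that from E123 (0%, 988). The difference from E1 had a median of −0.24 over all genes, a shift that its values include. Adamts3 differed by −2.40 from E1 (adjusted p = 0.177 in edgeR) and by −1.98 from E123 (unadjusted p = 0.0018, adjusted p = 0.976 in edgeR).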

How the data were processed

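Nuclei were sorted in pools of 50 to 100, and cDNA was primed on poly(A), amplified by 17 cycles of PCR and tagmented without strand marks or molecular identifiers, per the labels' protocols. The deposited table holds raw read counts per Ensembl gene. Per the submitters' processing notes, cutadapt 1.18, STAR 2.5.3a and HOMER 4.9.1 were used with mm10. GENCODE vM21 named 55154 of 55335 identifiers, and the other 181 held 0.0225% of counts.

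Counts of 48 VIP libraries (12 groups) were fitted with edgeR 4.0.16 in R 4.3.3 (TMM, filterByExpr, robust quasi-likelihood F test, 1 coefficient per group), with Benjamini-Hochberg adjustment over all genes tested and a threshold of 0.05. Total nuclei were fitted alike, and the VIP-minus-total test used all 96 libraries. CPM are on TMM library sizes, and SEs are the log2 fold change over the square root of F. Folds against a group at 0 use a floor of 3 counts over its 4 libraries, which covers counting error only. Named were genes past the threshold, the next 10 by p, 7 genes of prior interest (Igf1, Vip, Fos, Npas4, Egr1, Junb, Bdnf) and up to 4 members per list by p. Further members, such as Atf3, Egr2, Egr4, Nr4a2, Nr4a3, Fosl1, Jun, Crtc1 and Gria4, were chosen after their values were seen. The comparison and lists were chosen with earlier results of these data known. Alternatives were other scalings, filters, DESeq2 1.42.0, covariates, a looser threshold of 0.1 on the same fit and leaving out each library. Some members of the lists are not reported here by name.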

Additional observations from a re-analysis of the deposited data

Results flagged for a closer look

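In 5 of 52 groups of 4 values examined, 1 library lay far from the other 3 by Dixon's criterion at 95%, and chance gives this in about 1 group in 20. Light replicate 1 accounts for 4 of the 5. It held 10340 CPM of mitochondrially encoded RNA (the other 3 light libraries 1885 to 3078). Its summed excitatory neuron markers were 2530 CPM (574 to 831 in the others). Its summed astrocyte markers were 1460 CPM (444 to 532), and its oligodendrocyte lineage markers 2215 CPM (308 to 465). In the dark group, replicate 4 held 16.8 CPM of Hsph1 against 32.3 to 33.1 in the other 3.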

How the results depend on the processing

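The count of 10 genes became 73 without a filter on low counts (55 higher and 18 lower, 9 shared with the 10), 70 with DESeq2 (29 higher and 41 lower, against 7 and 3, with all 10 shared), 24 with the length index as a covariate (all 10 shared) and 1 with only the 8 libraries. Leaving out 1 library gave 1 to 9. The replicate block gave 9 genes (7 shared). Same-numbered light and dark libraries had correlations of −0.0353 to 0.0343 and none of the 4 matched its own number best. These correlations run over all genes and cannot exclude a pairing that affects only a few. In Cre VIP nuclei 3 genes became 8 with size factors, 10 with total counts, 49 without the filter and 43 with DESeq2, and 1 to 4 without 1 library. Total nuclei gave 188 without the filter, 116 with DESeq2 and 15 to 37 without 1 library. Tests of differences, at 0 genes, gave for dCre minus Cre 8 without the filter, 19 with DESeq2 and 0 to 1 without 1 library. E23 minus E1 gave 1 with size factors, 4 with total counts, 177 without the filter, 138 with DESeq2 and 0 to 2 without 1 library. E23 minus E123 gave 6 without the filter, 12 with DESeq2 and 0 without any 1 library. VIP minus total gave 40 with DESeq2, 1 with the replicate block of VIP and total libraries of a number (added after seeing the data; 6 of 8 VIP libraries correlated best with the total library of their number) and 0 in each of 6 fits without 1 library; the other 10 of its 16 libraries were not left out. The causes were not tested. Igf1 differed by 0.267 to 0.452 and the length index by −0.627 to −0.299 without 1 library, the index at p = 0.0286 (exact permutation, smallest possible) without dark replicate 4. Of 1198 values of 67 named genes under 18 settings, all kept their sign and 40 newly passed. The 10 genes past the threshold had 180 of these values, of which 113 passed and 67 did not. The 113 include the looser threshold of 0.1 on the same fit, which each of the 10 passes by construction. Fosb and Atf3 had no count in the dark, so their folds are bounds only.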
